A study of Homo sapiens with 6 samples.

Results

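LGR5, SP5, NOTUM and APC are 4 genes of the canonical WNT pathway, and each was found by its symbol in 1 row of a table of 753 genes. The table compares AsPC-1, an established human pancreatic adenocarcinoma cell line, in 2 groups of 3 samples. The control group (genotype TMPRSS4 NC) received a control lentivirus, and the shTMPRSS4 group (genotype TMPRSS4-Knockdown) received a lentivirus whose short hairpin RNA targets TMPRSS4, a transmembrane protease. All 6 samples share lentiviral transduction, and no hairpin other than the 1 against TMPRSS4 is described. TMPRSS4 itself was not among the rows analysed here, so the knockdown was not checked and the group names follow the labels.

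In canonical WNT signalling a secreted WNT ligand binds Frizzled and LRP receptors, which halts the degradation of beta-catenin and lets it enter the nucleus as a partner of TCF/LEF transcription factors. Many genes switched on in this way feed back on the pathway. LGR5 is a receptor for R-spondins, secreted proteins that strengthen the response to WNT, and it marks stem cells at the base of the intestinal crypt. SP5 is a zinc finger transcription factor of the Sp family, a direct target of beta-catenin that represses other genes. NOTUM is a secreted carboxylesterase that removes the lipid from WNT ligands and so inactivates them. APC is a scaffold of the cytoplasmic complex that marks beta-catenin for degradation, and its loss is a common early step in colorectal cancer.

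Promoter sequences are shown because SP5 is a textbook target of TCF/LEF factors, and those of APC are set beside it. The RefSeq promoter table (GRCh38.p14) held entries for 2 of the 4 members, SP5 and APC, and APC had 2 annotated starts. The 250 bases upstream of each start are given 5′ to 3′ on the gene's strand. Capitals mark the core letters bound by TCF/LEF factors (CTTTGAA on either strand, likewise the form CTTTGAT, the form ending in TA, which is CTTTGTA, and finally the form CTTTGTT) and the GC box bound by Sp factors (GGGCGG on either strand), and no 2 matches overlap. The windows are chr2:170715087-170715336 for SP5, chr5:112707248-112707497 for the first APC start and chr5:112737635-112737884 for the second, all on the plus strand.
SP5: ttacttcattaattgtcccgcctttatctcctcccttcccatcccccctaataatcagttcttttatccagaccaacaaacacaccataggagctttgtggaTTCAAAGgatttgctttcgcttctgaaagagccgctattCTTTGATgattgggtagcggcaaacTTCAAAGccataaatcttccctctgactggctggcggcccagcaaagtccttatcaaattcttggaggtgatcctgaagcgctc
APC, first start: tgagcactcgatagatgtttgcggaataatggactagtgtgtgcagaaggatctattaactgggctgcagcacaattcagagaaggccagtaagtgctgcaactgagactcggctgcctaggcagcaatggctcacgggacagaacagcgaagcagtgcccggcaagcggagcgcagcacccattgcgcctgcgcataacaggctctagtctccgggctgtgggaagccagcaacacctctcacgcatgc
APC, second start: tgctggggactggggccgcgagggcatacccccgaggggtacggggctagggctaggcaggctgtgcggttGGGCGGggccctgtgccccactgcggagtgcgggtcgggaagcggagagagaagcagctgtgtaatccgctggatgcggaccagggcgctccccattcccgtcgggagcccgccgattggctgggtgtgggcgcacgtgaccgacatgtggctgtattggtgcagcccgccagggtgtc
The SP5 window held 3 TCF core matches, which begin 148, 109 and 84 bases before the start. At least 1 match was present in 12% of 35116 promoter windows of this length, and at least 3 in 0.122% (43 windows). Neither APC window held a TCF core match. The second APC start had 1 GC box, a feature of 42.6% of the windows. Of the rows higher in shTMPRSS4 with a promoter entry, 67 of 399 (16.8%) held at least 1 TCF core match, against 20 of 135 lower rows (14.8%) and 14.3% of all 27305 genes with an entry. The WNT and stem cell lists described below had 10 genes that were rows with a promoter entry. Of these 10, 2 held a match, namely SP5 and TLE4, the latter lower in shTMPRSS4. These are counts of letters and not of occupied sites.

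Several facts of the whole table bear on the members. Its rows are a selection made on the contrast examined here. In the authors' deposited table each differs at least 2-fold, with a false discovery rate (FDR) no higher than 0.0490. They make up 4.98% of the 15117 genes the authors adjusted over. Library depth, recovered from the ratio of read count to FPKM (the fragment count divided by gene length and by depth), was between 30200000 and 57200000 reads in the controls and between 46800000 and 53300000 reads in the shTMPRSS4 libraries. Control replicate 3 had the lowest depth and is the only library whose description carries the code L3 rather than L4. Because every row was chosen for a difference, edgeR's quasi-likelihood test called 99.1% of the 705 rows it tested (Benjamini-Hochberg adjusted p under 0.05), 73.3% as higher and 25.8% as lower. All 4 members were called higher, a count that such a background makes uninformative. The libraries of the 2 groups did not overlap in FPKM for any of the 4 members, nor for 97.7% of all rows, 72.8% being separate and higher in shTMPRSS4. What follows therefore describes sizes, levels and evenness, and the tests are not independent of the selection.

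**Figure D1:**
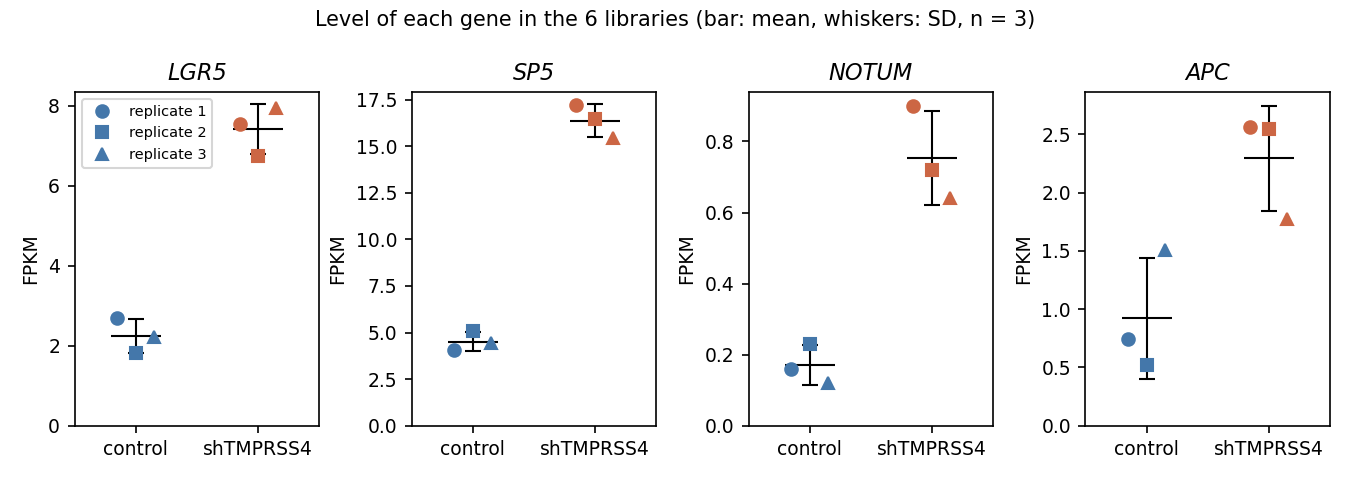
FPKM of LGR5, SP5, NOTUM and APC (y axes, each with its own scale from 0) in the 3 control and 3 shTMPRSS4 libraries, with marker shapes for the replicate number, the group mean as a bar and the SD as whiskers. The shTMPRSS4 libraries lie above the controls for each gene, with a wide gap for SP5 and a narrow one for APC, whose control replicate 3 (1.51 FPKM) lies close to shTMPRSS4 replicate 3 (1.77 FPKM).

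The receptor LGR5 (ENSG00000139292, chromosome 12, 71439770 to 71586310, plus strand, GRCh38) was at 2.68, 1.82 and 2.21 FPKM in control replicates 1, 2 and 3. It reached 7.55, 6.74 and 7.95 FPKM in shTMPRSS4 replicates 1, 2 and 3. Every shTMPRSS4 library was well above every control, and the lowest of them exceeded the highest control 2.51-fold. LGR5 thus rose 3.31-fold, with group means of 2.24 ± 0.431 and 7.41 ± 0.616 FPKM (SD, n = 3 per group). On the log2 scale of depth-scaled counts the difference was 1.74 ± 0.18 (SE), and the edgeR quasi-likelihood fit gave 1.72 with an adjusted p of 8.11e-07. Control replicates 1 and 2 differed beyond counting error, with 95% Poisson intervals of 8.24 to 9.81 reads per 1000000 reads of depth (RPM) against 5.33 to 6.95. That spread among controls was small beside the gap to the lowest shTMPRSS4 library, at 22.6 RPM.

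The transcription factor SP5 (ENSG00000204335, chromosome 2, 170715351 to 170718078, plus strand) had the highest level per length of the 4 genes and the most even replicates. Control replicates 1, 2 and 3 had 4.05, 5.09 and 4.41 FPKM, and shTMPRSS4 replicates 1, 2 and 3 had 17.19, 16.47 and 15.45 FPKM. No shTMPRSS4 library was less than 3.04 times the highest control. The means were 4.52 ± 0.528 and 16.4 ± 0.874 FPKM (SD, n = 3 per group), so SP5 rose 3.62-fold. Its log2 difference was 1.86 ± 0.11 (SE), and the edgeR quasi-likelihood adjusted p of 4.30e-08 was the lowest of the 4 members. The counts behind it were 1127 reads over the control libraries and 5021 over the shTMPRSS4 libraries.

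The secreted inhibitor NOTUM (ENSG00000185269, chromosome 17, 81952507 to 81961840, minus strand) was the least abundant member and had the largest fold change. It was at 0.16, 0.23 and 0.12 FPKM in control replicates 1, 2 and 3, and at 0.90, 0.72 and 0.64 FPKM in shTMPRSS4 replicates 1, 2 and 3. The groups were separate, with the lowest shTMPRSS4 library 2.78 times the highest control. NOTUM rose 4.43-fold, its group means being 0.17 ± 0.0557 and 0.753 ± 0.133 FPKM (SD, n = 3 per group), with a log2 difference of 2.10 ± 0.30 (SE) and an edgeR quasi-likelihood adjusted p of 0.000261. Only 13, 12 and 5 reads in control replicates 1, 2 and 3 stand behind the control level. Over the summed counts, 30 in control and 157 in shTMPRSS4 libraries, the ratio per depth was 4.33 with an exact 95% interval of 2.92 to 6.64. This interval covers counting error only, and it contains the fold changes of LGR5 and SP5, so the place of NOTUM beside them is not resolved. It does not bear on the order of LGR5 and SP5.

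APC (ENSG00000134982, chromosome 5, 112707498 to 112846239, plus strand) had the smallest fold change and the most uneven replicates of the 4. Control replicates 1, 2 and 3 had 0.74, 0.52 and 1.51 FPKM, so the third was 2.90 times the second. In shTMPRSS4 replicates 1, 2 and 3 the values were 2.56, 2.55 and 1.77 FPKM. The lowest shTMPRSS4 library exceeded the highest control by a factor of 1.17. Control replicate 3 had 7.61 RPM (95% Poisson interval 6.66 to 8.66) and shTMPRSS4 replicate 3 had 8.96 RPM (8.12 to 9.86), intervals that overlap. Control replicates 1 and 3 differed beyond counting error, since the interval of the former was 3.24 to 4.26. The means were 0.923 ± 0.52 and 2.29 ± 0.453 FPKM (SD, n = 3 per group), a 2.48-fold rise, with a log2 difference of 1.44 ± 0.49 (SE) and an edgeR quasi-likelihood adjusted p of 0.0245. Without control replicate 3 the log2 fold change of APC was 1.86 (edgeR adjusted p = 0.000135). The call was lost without control replicate 1 (edgeR log2 fold change 1.19, adjusted p = 0.103), shTMPRSS4 replicate 1 (1.25, adjusted p = 0.0512) or shTMPRSS4 replicate 2 (1.26, adjusted p = 0.0709).

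**Figure D2:**
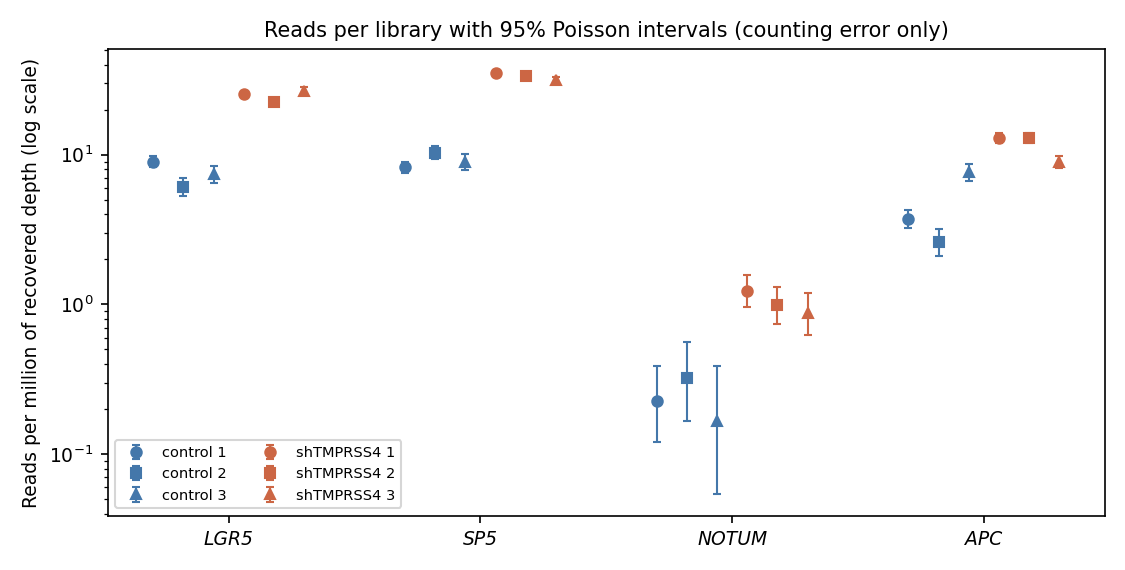
RPM, reads per 1000000 reads of recovered depth (log y axis), for each gene and library, with exact 95% Poisson intervals that cover counting error only. Controls are blue, shTMPRSS4 libraries orange and marker shapes give the replicate; the NOTUM controls rest on 5 to 13 reads and have wide intervals, and control replicate 3 of APC lies above the other controls.

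The uneven APC controls were uncommon among rows with a mean between 1 and 20 FPKM, where APC, at 1.61, lies near the lower end. All these rows passed the authors' FDR limit on the same libraries, which favours genes with even replicates. The count therefore says nothing of unselected genes. Of 317 rows with a mean between 1 and 20 FPKM, 12 (APC among them) had a control SD on the log2 scale at least as large as that of APC, 0.79, while 118 reached that of LGR5, 0.28, and 184 that of SP5, 0.17. Control replicate 3 was not high in general. It was the highest control in 113 rows with a mean of at least 1 FPKM, replicate 1 in 158 and replicate 2 in 117. The part of the L3 code in the APC value was not tested, as it marks a single library. Among the L4 libraries alone the log2 fold changes were 1.71 for LGR5, 1.84 for SP5 and 1.94 for NOTUM. An exact two-sided permutation test over 3 against 3 libraries gave p = 0.1 for each of the 4 genes, the smallest it can give. The labels do not say that replicates were separate cultures, so p-values measure the spread between these samples only.

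Per length, the order of levels was SP5, LGR5, APC and NOTUM in each group. In the controls SP5 was at 2.02 times the FPKM of LGR5, LGR5 at 2.42 times APC, and APC at 5.43 times NOTUM. The control ranges of neighbours in this order did not overlap, and neither did the ranges in shTMPRSS4 libraries, where the ratios were 2.21, 3.23 and 3.04. The FPKM of APC corresponds to a length of about 5043 bases, while its annotated transcripts in GENCODE release 29 run from 524 to 10701 bases. Scaled by the longest transcript instead, APC had 0.434 in control and 1.08 in shTMPRSS4 libraries, LGR5 1.63 and 5.40, SP5 4.52 and 16.4, and NOTUM 0.102 and 0.445 on the FPKM scale, in the same order. Sequence shared with other genes was limited, since 2.85% of the 31-base words of LGR5, 2.07% of those of SP5, 2.10% of those of APC and 0% of those of NOTUM occur elsewhere among the annotated transcripts. Exons of LGR5 overlap the opposite-strand gene AC078860.1, and exons of APC overlap AC008575.1 on the same strand. The protocol describes no step that keeps strand, so reads of LGR5 and AC078860.1 may not be separable. Reads in the exons that APC shares with AC008575.1 may not be separable even where strand is kept. The part of either overlap in the values was not tested.

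Set in the whole table, the members were moderate in size of change. Ordered by log2 fold change (values of the authors' deposited table), NOTUM (2.15) ranked 187 of the 555 higher rows, SP5 (1.86) 221, LGR5 (1.73) 257 and APC (1.31) 386. The median over the 4 was 1.79, beside 1.62 over all higher rows and 1.33 over all rows. By FDR in the authors' deposited table SP5 ranked 71 of 753 rows (2.00e-46) and LGR5 134 (3.79e-26). NOTUM and APC ranked 466 and 471, with FDR values of 0.000527 and 0.000598 in the authors' deposited table.

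**Figure D3:**
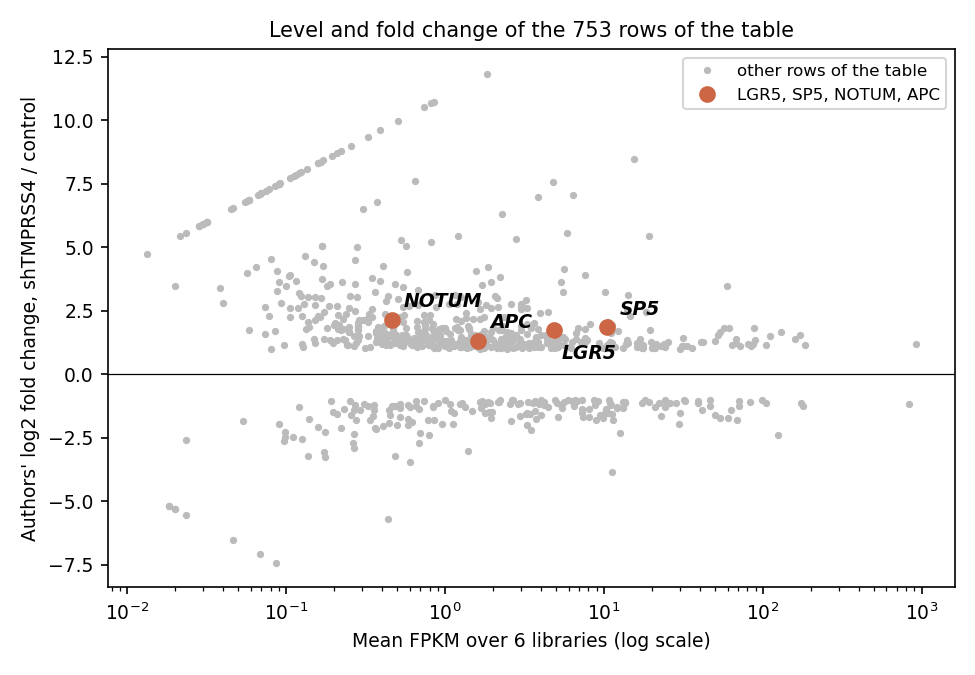
Mean FPKM over the 6 libraries (log x axis) against the authors' log2 fold change for the 753 rows in grey, with LGR5, SP5, NOTUM and APC as labelled orange points. The members lie between 1.31 and 2.15 within the body of the higher rows; the grey diagonal at the upper left consists of rows with no control reads, where the authors' table uses a mean of 0.001.

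The rest of the pathway was examined through 8 lists of WNT and stem cell genes, 147 symbols in all, where a few genes count under an older and a newer symbol. Of these 14 (9.52%) were rows of the table, against 4.98% of the genes the authors adjusted over. The members among the 14 were rows by choice, and the other 10 were not members. The lists were chosen with earlier results of these data known, and they may hold genes the authors did not adjust over. The shares thus have unlike bases and do not measure enrichment. The edgeR quasi-likelihood test called 12 of the 14 higher and 2 lower, beside 73.3% called higher and 25.8% called lower of all rows tested. The listed genes called higher numbered 7 with TMM or DESeq2 size factors over the rows. Of all rows tested, 167 of 703 (TMM) and 177 of 704 (size factors) were then called higher. With limma on rows of at least 1 FPKM, where fewer genes are tested, the listed genes called higher also numbered 7. In that setting 266 of the 388 rows tested were called higher. In the authors' deposited table the 14 had a median log2 fold change of 1.51. Genes that were not rows of the table are not analysed here, so nothing is said of them.

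Few genes of the upstream pathway were listed. Of 21 genes for WNT ligands and their secretion 1 was in the table, the ligand WNT4, which was called higher at 0.977 ± 0.182 FPKM against 0.38 ± 0.0529 in control (SD, n = 3 per group). Of 16 receptors and co-receptors 1 was in the table. This was ROR1, a receptor tyrosine kinase for WNT5A in the branch that does not use beta-catenin, and it fell from 2.65 ± 0.643 to 0.91 ± 0.125 FPKM with no overlap of the groups (edgeR adjusted p = 2.14e-05). LGR5 was the 1 listed gene of 7 R-spondins and LGR receptors, NOTUM the 1 of 21 secreted and membrane inhibitors, and APC the 1 of 18 components of the destruction complex and cytoplasmic transducers. AXIN2, RNF43, ZNRF3, DKK1 and NKD1, feedback genes often read beside LGR5, were not among the rows analysed here. Of 15 TCF/LEF factors and nuclear partners 2 were listed, SP5 and the corepressor TLE4. TLE4 fell from 5.38 ± 0.382 to 2.65 ± 0.234 FPKM (edgeR adjusted p = 4.37e-05).

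The list of common WNT targets had the most rows. Of its 40 genes 8 (20%) were in the table, 5 of them not members, beside 4.98% of the genes the authors adjusted over. All 8 were called higher by edgeR, LGR5, SP5 and NOTUM among them, beside 73.3% called higher of all rows tested. The members were rows by choice and the list was chosen with earlier results known, so both counts are uninformative. SOX4, a transcription factor of progenitor cells, was the most abundant and rose to 77.4 ± 4.37 FPKM from 26.3 ± 1.84 in control (SD, n = 3 per group). EPHB3, an ephrin receptor that positions cells along the crypt, rose from 7.84 ± 0.337 to 20 ± 0.374 FPKM. PROX1, a homeobox transcription factor, rose from 0.437 ± 0.14 to 3.67 ± 0.332 FPKM, a larger log2 difference (3.11 ± 0.30 SE) than that of any member. TNFRSF19, a receptor of the tumour necrosis factor family also known as TROY, had 8, 4 and 3 reads in control replicates 1, 2 and 3 and 177, 206 and 169 in shTMPRSS4 replicates 1, 2 and 3. Its fold change is large but rests on few control reads. TDGF1, the NODAL co-receptor cripto, rose from 0.207 ± 0.0306 to 0.567 ± 0.189 FPKM.

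Of 29 intestinal stem cell signature genes 5 (17.2%) were listed, namely LGR5, EPHB3, TNFRSF19, SMOC2 and HOPX. All 5 were called higher by edgeR, beside 73.3% called higher of all rows tested. LGR5, EPHB3 and TNFRSF19 were also counted among the common WNT targets. The stem cell count thus repeats part of that one and is uninformative for the same reasons. SMOC2, a matricellular protein found in crypt stem cells beside LGR5, rose from 0.0533 ± 0.0208 to 0.45 ± 0.0361 FPKM, with 8, 6 and 2 reads in control replicates 1, 2 and 3. HOPX, a homeobox protein linked to slowly cycling stem cells, rose from 0.71 ± 0.289 to 1.6 ± 0.249 FPKM. With TMM over the rows its log2 fold change was 0.02 (edgeR adjusted p = 0.977). OLFM4 and ASCL2, which with LGR5 define the crypt stem cell in many studies, were not among the rows analysed here.

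**Figure D4:**
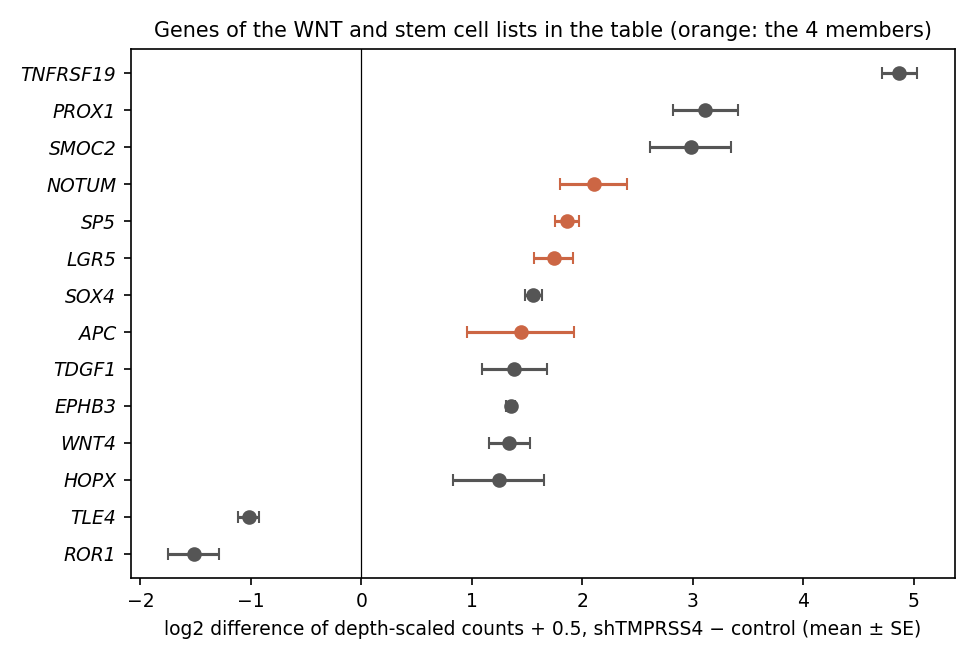
Difference between shTMPRSS4 and control of log2 depth-scaled counts plus 0.5 (x axis, mean ± SE, n = 3 per group) for the 14 listed genes of the WNT and stem cell lists, members in orange. TNFRSF19 and PROX1 lie farthest to the right, the 4 members between 1.44 and 2.10, and TLE4 and ROR1 lie below 0.

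The annotation columns of the table give another view, read after the values were known. Its GO term for the Wnt signalling pathway held 13 rows, 7 higher and 6 lower, NOTUM and APC among the higher ones, beside 73.7% higher of all rows. The KEGG term for the same pathway held 7 rows, 6 higher and 1 lower, with APC the only member among them. The lower gene of the KEGG term was PRKACB, a catalytic subunit of protein kinase A, at 3.56 ± 0.803 FPKM in control and 1.59 ± 0.183 in shTMPRSS4 libraries (SD, n = 3 per group). The GO term for negative regulation of the canonical pathway held 8 rows, 4 higher and 4 lower, and included NOTUM and APC. The term for negative regulation of the pathway as a whole held 6 rows, 5 higher and 1 lower, again with NOTUM and APC. The term for positive regulation of the canonical pathway held 4 rows, 3 higher and 1 lower, LGR5 among the higher ones. FRZB, a secreted WNT antagonist under both negative terms and absent from the lists above, rose from 0.04 ± 0.01 to 0.263 ± 0.0153 FPKM. Only 9, 4 and 4 reads in control replicates 1, 2 and 3 stand behind its control level. LRP4, a receptor that binds WNT inhibitors, fell from 0.333 ± 0.0751 to 0.13 ± 0.0458 FPKM. Annotated inhibitors of the pathway thus went in both directions.

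Genes with profiles most like each member were sought among 383 rows with a symbol and a mean of at least 1 FPKM, by Pearson's correlation of log2(FPKM + 0.1) over the 6 libraries. The difference between the groups sets most of this measure, and 232 of the 383 rows had r above 0.9 with LGR5. The closest to LGR5 were SLC38A11 (r = 0.998), COLCA2 (r = 0.998) and ABCA10 (r = 0.997), and the closest to SP5 were TFF3 (r = 0.998), TUBB3 (r = 0.997) and CRIP2 (r = 0.997). NOTUM was most like BAAT (r = 0.994), SYNGR4 (r = 0.991) and HIST1H2AG (r = 0.990). APC stood apart in that only 19 rows reached r above 0.9 with it, the closest being FAM227A (r = 0.971), CDCA4 (r = 0.955) and DIP2C (r = 0.948).

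Markers of other cell types moved in the same comparison as the members. Of 13 goblet cell markers 5 were in the table, all with higher values in shTMPRSS4 libraries, beside 73.7% of all rows. Their summed level was 13.3 to 16.6 FPKM in control and 166 to 170 in shTMPRSS4 libraries, where TFF3 alone was at 109 to 111. ZG16 was listed at 0 in all controls, but had only 17, 10 and 5 reads in shTMPRSS4 replicates 1, 2 and 3. Of 18 enteroendocrine and islet markers 3 were in the table, with sums of 0.24 to 0.25 and 12.6 to 14.1 FPKM. NEUROG3 made up most of the shTMPRSS4 sums, at 10.7 to 12.4 FPKM. PAX4 and GCG were listed at 0 in all controls, and GCG had only 9, 11 and 4 reads in shTMPRSS4 replicates 1, 2 and 3. ZG16 and GCG did not pass the low-count filter of the edgeR test. The Paneth cell list had 1 of 8 genes in the table, the Notch ligand DLL4, at 1.21 to 1.35 and 3.61 to 4.16 FPKM. Of 10 fibroblast markers 2 were listed (sums 4.32 to 5.20 and 10.8 to 13.2 FPKM), and of 7 endothelial markers 1 (0.38 to 0.66 and 0.15 to 0.24 FPKM). No immune marker of 11 and no duct epithelium marker of 12 was a row, so the labelled cell type could not be checked. The part of these genes in the values of LGR5, SP5, NOTUM and APC was not tested. In such bulk RNA a change in the number of expressing cells and in RNA per cell cannot be told apart.

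The size of every fold change depends on the scale, since the rows are a selection with 73.7% higher. With TMM or DESeq2 size factors computed over the rows, which centre the selected genes, the median of all rows moved by -1.20 or -1.18 on the log2 scale. The higher and lower calls became 167 and 192 with TMM, against 517 and 182 on recovered depth. Relative to that centre LGR5 (0.53, edgeR adjusted p = 0.007) and SP5 (0.67, adjusted p = 0.000271) were still called higher with TMM. NOTUM (0.91, edgeR adjusted p = 0.0593) and APC (0.15, adjusted p = 0.828) were not. No member changed direction under any of the alternatives run. Outside the scalings over the rows, the selection on these same libraries had largely fixed this outcome beforehand.

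**Figure D5:**
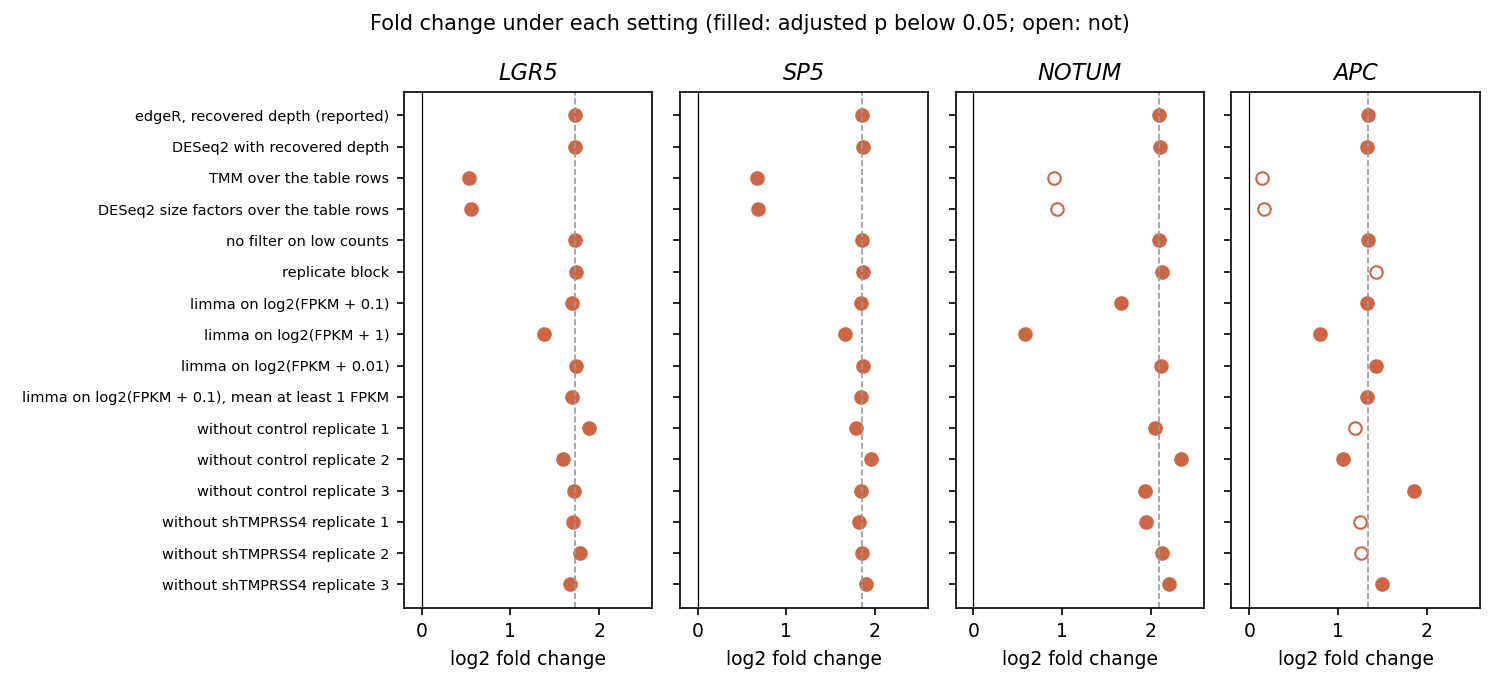
edgeR, DESeq2 or limma log2 fold change (x axes) of each member under the reported setting (top, dashed line) and 15 alternatives (y axis), filled where the adjusted p is below 0.05. Points stay to the right of 0 throughout; scaling over the rows shifts all 4 members to the left, and APC has 6 open points. NOTUM has no point where a mean of at least 1 FPKM is required.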

How the data were processed

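RNA of 6 AsPC-1 samples was enriched for polyadenylated RNA and sequenced, per the labels' protocols. All 753 rows carry human Ensembl identifiers found in GENCODE release 29, yet mm8 and mm9, which are mouse builds, are listed with Bowtie 0.12.2 per the submitters' processing notes. The reference is thus uncertain. How reads were counted and which test the authors ran is not given in the sources used here. Per the file headers the authors deposited read counts and FPKM per gene and library, group mean FPKM, a log2 fold change, which equals the log2 ratio of those means, and a p-value with an FDR.

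Relative depth was the median ratio of count to FPKM over 159 genes with at least 200 counts in every library, and its absolute scale came from 12 of them with 1 annotated transcript. Counts were tested with edgeR 4.0.16 (R 4.3.3), quasi-likelihood with its low-count filter, recovered depth as library size and Benjamini-Hochberg adjustment over 705 rows. The code was tested on simulated data. The standard error of a log2 difference comes from depth-scaled counts plus 0.5. The alternatives used limma 3.58.1, DESeq2 1.42.0, other scalings, filters and pseudocounts, a replicate block and leaving out each library. The text names the 4 members, all listed genes of 8 WNT and stem cell lists (up to 8 each), and the 3 genes nearest each member in profile. FRZB, LRP4 and PRKACB, and the genes named as not in the table, were added after the values were seen. The cell type markers ZG16, NEUROG3, PAX4, GCG and DLL4 are also named outside this rule. So are the genes whose exons overlap LGR5 or APC. The members and lists were chosen with earlier results of these data known.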

Additional observations from a re-analysis of the deposited data

How the results depend on the processing

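LGR5 and SP5 were called higher under all 15 alternatives, NOTUM under 12 of 14 and APC under 9 of 15. Scaling over the table rows gave NOTUM log2 fold changes of 0.91 (TMM, edgeR adjusted p = 0.0593) and 0.94 (DESeq2 size factors, adjusted p = 0.056), and gave APC 0.15 and 0.16 (edgeR adjusted p = 0.828 and 0.817). By construction it centres genes chosen for a difference. With these scalings 2 members were called, and the table genes called higher numbered 167 of 703 and 177 of 704 tested. With limma on genes of at least 1 FPKM fewer rows were tested, 388, of which 266 were called higher and 121 lower. With the replicate block APC had a log2 fold change of 1.43 (edgeR adjusted p = 0.117), and 682 rows were called in place of 699. Same-numbered samples did not deviate together (r between -0.03 and -0.02 over 753 rows), and differently numbered ones had r between -0.01 and 0.03. Values this small, from deviations centred within each group of 3, do not show whether the numbers mark pairs. The samples share only a number. Leaving out each library in turn gave 1.05 to 1.86 for APC, 1.59 to 1.88 for LGR5, 1.78 to 1.95 for SP5 and 1.94 to 2.34 for NOTUM. It called 3 to 4 members, 513 to 526 rows higher and 178 to 185 lower. For APC, 3 of these 6 fits kept the call, and the cause of the uneven APC replicates was not tested. Among the other listed WNT and stem cell genes, a set examined after seeing the data, HOPX, TDGF1 and WNT4 were not called under either scaling over the rows. For NOTUM the depth limits the fold change, as 30 control reads stand behind it.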
